A study of Gallus gallus with 12 samples.

Results

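The anterior and the posterior region of the chicken urogenital system were compared at a single age, embryonic day 4.5 (E4.5, stage HH25). Both regions came from Hy-Line Brown embryos, and sexes were not separated. The comparison used 6 of the 12 RNA-seq libraries of the study, 3 of E4.5 anterior tissue (E4.5-Ant) and 3 of E4.5 posterior tissue (E4.5-Post), and it covered all genes. E4.5-Ant held the anterior mesonephros with the Müllerian ridge and some mesentery of the midline, since the nascent duct could not be dissected cleanly at this age. The rest of the same urogenital systems made up E4.5-Post, the control, in which kidney and mesentery were present and the ridge was absent. Each library was a pool of 5 embryos, and both regions were taken from the same 15 embryos. The other 6 libraries of the study are of Müllerian duct at E5.5 and E6.5. They entered the statistical model for the estimate of spread and are quoted only where the 2 regions are set beside them.

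The Müllerian duct is the embryonic tube that gives rise to the oviduct. It starts in the coelomic epithelium at the anterior end of the mesonephros, the kidney of the embryo, and grows backwards along the Wolffian duct, the duct that drains this kidney. Position along this axis is marked by the HOX genes, transcription factors in 4 clusters whose paralog groups start to be expressed in order from anterior to posterior. The mesentery holds mesenchyme that gives rise to connective tissue and to the smooth muscle of the viscera.

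The table held counts for 24121 genes, and the 6 libraries had between 24235353 and 29552197 counts on genes. E4.5-Ant library 2 stood apart. Genes of ribosomal RNA took 42.1% of its counts, against 0.199% and 0.344% in E4.5-Ant libraries 1 and 3 and 0.262% to 0.323% in E4.5-Post. The main fit therefore left this library out and used 11 libraries, and a fit with all 12 stands beside it. Levels are given as counts per 1000000 counts outside the genes of ribosomal RNA (CPM), which removes only the ribosomal RNA share of library 2. Its CPM still shifted with gene span. The median log2 ratio of library 2 to the mean of libraries 1 and 3 was -0.32 for protein coding genes under 10 kb. For those over 200 kb it was 1.14. Single values and list sums of library 2 are given without correction for this shift. Counts had been summed over whole gene spans, with introns, for reads of the matching strand. CPM is not divided by gene length and serves only to compare libraries for the same gene. E4.5-Ant values follow the order of libraries 1, 2 and 3. Changes are log2 fold changes (log2FC) of E4.5-Ant over E4.5-Post with their standard error (SE), and the edgeR FDR is the p-value of edgeR's quasi-likelihood test after Benjamini-Hochberg adjustment. A differentially expressed gene (DEG) was a gene that changed by 1.5-fold or more with an edgeR FDR no higher than 0.05. The p-values rest on the spread between pools of embryos.

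Regulators of the intermediate mesoderm were present in both regions. WT1, which marks coelomic epithelium and podocytes, was at 311, 343 and 326 CPM in E4.5-Ant, against 354, 373 and 366 CPM in E4.5-Post. PAX2, a regulator of the Wolffian duct and nephron, was at 202, 165 and 234 CPM in E4.5-Ant, against 356, 374 and 360 CPM in E4.5-Post. The summed level of the nephron list was 4649 to 5137 CPM in E4.5-Ant libraries 1 and 3 and 3805 CPM in library 2, against 5113 to 6023 CPM in E4.5-Post.

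Of 16603 genes tested in the 11 libraries, 1785 were DEG, which is 10.8% of them. In E4.5-Ant 1278 genes (7.7% of those tested) were higher and 507 (3.05%) were lower, so 71.6% of the DEG were higher. In the fit of all 12 libraries 2262 DEG were found among 16382 genes (13.8%), with 1590 (9.71%) higher and 672 (4.1%) lower. The 2 fits shared 1623 DEG, all with the same direction. In the 11-library fit the rises were also the larger changes. Among the DEG, 664 rose and 169 fell at least 2-fold, and 144 rose and 19 fell at least 4-fold. The median log2FC of all tested genes was -0.02 in both fits, a value that the normalization holds near 0. The fitted libraries of the 2 regions did not overlap in 1780 of the DEG, which the test selects for separation, and in 57.9% of all tested genes.

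**Figure D1:**
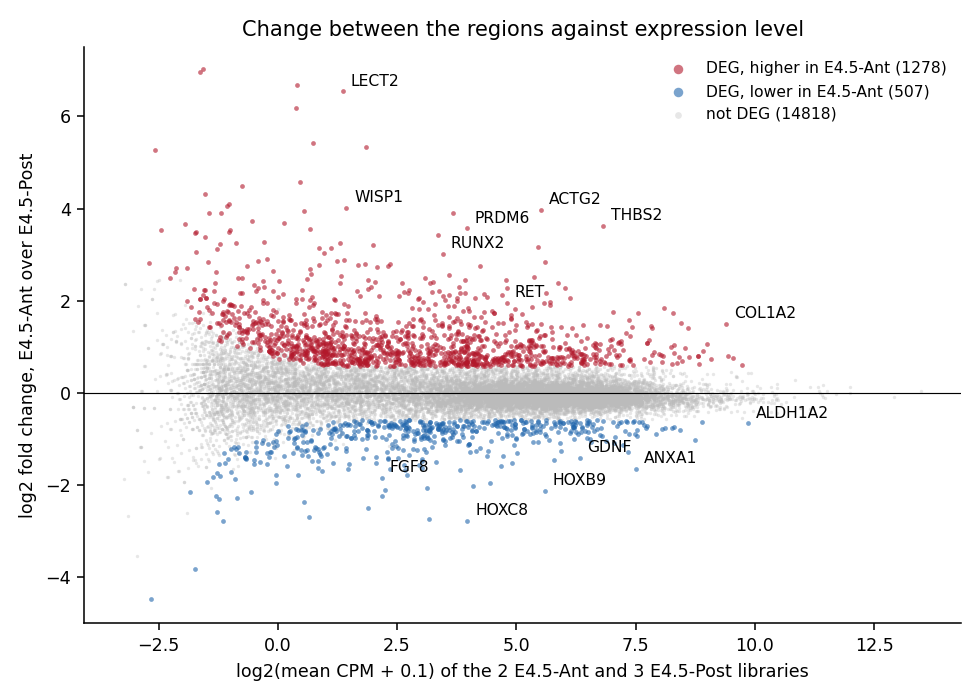
Expression level against change for the 16603 genes tested in the 11-library fit. The horizontal axis is log2(mean CPM + 0.1) of the 2 fitted E4.5-Ant and 3 E4.5-Post libraries, the vertical axis is the log2FC of E4.5-Ant over E4.5-Post, and colours mark the 1278 genes that were higher and the 507 that were lower. The rises extend further from 0 than the falls at nearly every level.

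The largest rises among genes that passed 5 CPM were those of a secreted protein, contractile genes, matrix genes and a few regulators. LECT2 encodes a secreted protein made mainly by the liver. It was at 5.55, 7.02 and 6.67 CPM in E4.5-Ant, against 0.0739, 0.106 and 0 CPM in E4.5-Post. These were 320 counts in E4.5-Ant libraries 1 and 3 and 5 counts in all of E4.5-Post, a ratio of 102 (95% exact interval 43.2 to 316, which covers counting error only). Its log2FC was 6.54 (edgeR FDR 1.06e-07), and 7.21 without E4.5-Post library 2. ALB, the serum albumin gene that defines that list, was at 9.81, 9.30 and 8.69 CPM in E4.5-Ant and 9.16, 8.72 and 9.32 CPM in E4.5-Post. WISP1, a matricellular protein and WNT target, was at 6.42, 17.4 and 5.55 CPM in E4.5-Ant, against 0.258, 0.461 and 0.349 CPM in E4.5-Post (log2FC 4.02, SE 0.279, edgeR FDR 1.36e-07). SPIK5, which the files list on chromosome 13, was at 36.5, 16.7 and 21.4 CPM in E4.5-Ant, against 1.55, 2.23 and 1.88 CPM in E4.5-Post (log2FC 3.91, edgeR FDR 3.26e-08). PCSK1, a protease that processes prohormones, was at 8.34, 7.54 and 8.32 CPM in E4.5-Ant, against 0.812, 0.957 and 0.872 CPM in E4.5-Post (log2FC 3.21, edgeR FDR 3.49e-09). LECT2, WISP1, SPIK5 and PCSK1 were chosen among DEG with no overlap of the fitted libraries, so the separation of the regions in them was set by that choice.

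Of the 12 largest falls, 6 were of HOX genes and a further fall was that of the antisense RNA HOXA10-AS. The other 5 were RHCG, FGF8, MYOT, ANXA1 and LIN28A. RHCG, an ammonia transporter of renal collecting epithelium in mammals, was at 5.30, 4.97 and 6.87 CPM in E4.5-Ant, against 25.8, 21.4 and 25.3 CPM in E4.5-Post (log2FC -2.03, SE 0.172, edgeR FDR 9.7e-07). ANXA1 encodes annexin A1, a membrane-binding protein. It was at 73.1, 89.2 and 89.4 CPM in E4.5-Ant, against 248, 221 and 279 CPM in E4.5-Post (log2FC -1.65, edgeR FDR 5.7e-08). LIN28A, a repressor of let-7 microRNAs that marks immature cells, was at 3.28, 2.05 and 4.02 CPM in E4.5-Ant, against 11.3, 11.2 and 10.5 CPM in E4.5-Post (log2FC -1.63, edgeR FDR 1.02e-06). MYOT, a Z-disc protein of muscle, was at 1.74, 1.87 and 2.73 CPM in E4.5-Ant, against 4.99, 6.59 and 8.86 CPM in E4.5-Post (log2FC -1.65, edgeR FDR 0.00194). Library 2 lay close to the other 2 E4.5-Ant libraries in all 4.

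**Figure D2:**
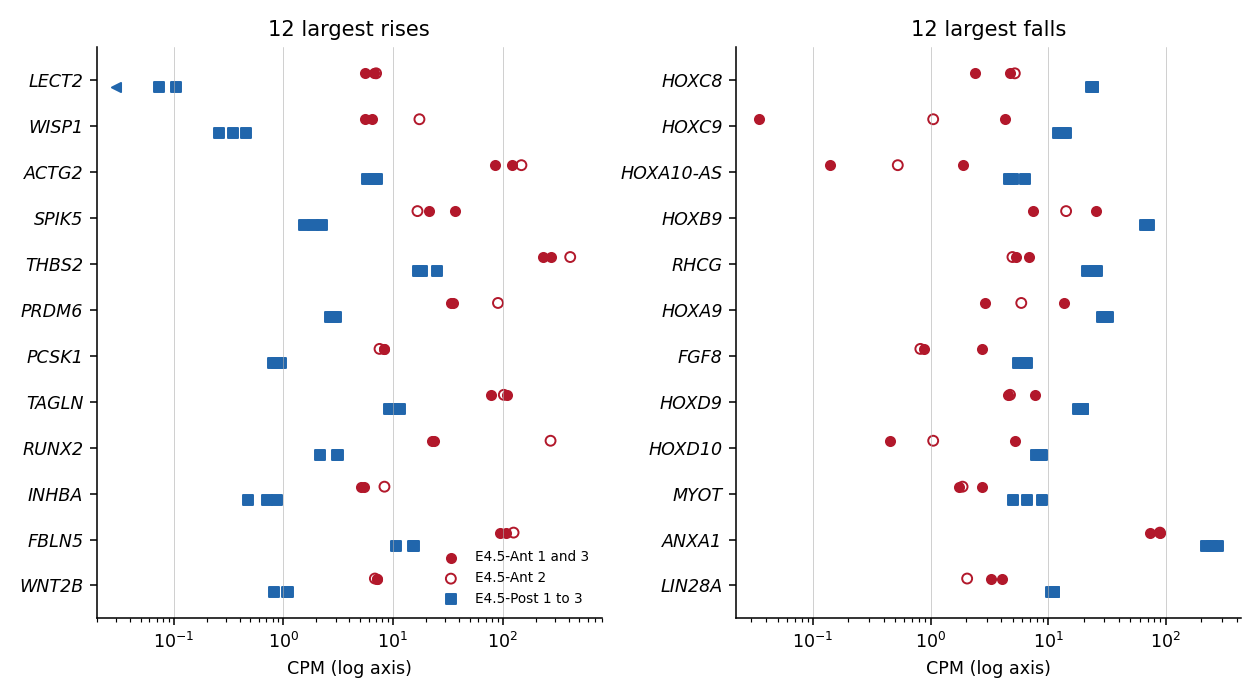
CPM, on a log axis, of the 12 largest rises and the 12 largest falls in each library. E4.5-Ant is drawn above E4.5-Post for each gene, with E4.5-Ant library 2 as an open circle, and the triangle at the left edge marks the E4.5-Post library with 0 counts of LECT2. The 24 genes were chosen for no overlap of the fitted libraries, and library 2 lies on the same side of E4.5-Post in each. E4.5-Ant libraries spread widely in HOXC9, HOXA10-AS, HOXA9 and HOXD10, and library 2 lies far above the others in RUNX2.

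Genes of contractile smooth muscle rose. Of 21 tested rows of the smooth muscle list (20 symbols, with FLNA in the table under 2 gene IDs), 13 rose and 0 fell, with a median log2FC of 0.77 (1.0 with 12 libraries). ACTG2, the enteric smooth muscle actin (chromosome 22, 3827644 to 3830276 in GRCg6a), was at 123, 148 and 86.0 CPM in E4.5-Ant, against 5.83, 6.70 and 7.08 CPM in E4.5-Post (log2FC 3.97, SE 0.184, edgeR FDR 4.09e-09). TAGLN, which encodes the actin-binding protein transgelin (chromosome 24, 5236144 to 5238982), was at 110, 102 and 78.5 CPM in E4.5-Ant, against 10.3, 11.5 and 9.18 CPM in E4.5-Post (log2FC 3.16, SE 0.139, edgeR FDR 3.43e-09). CNN1, the calponin of smooth muscle, was low but changed as much, with 4.08, 2.748 and 2.53 CPM in E4.5-Ant and 0.185, 0.283 and 0.349 CPM in E4.5-Post (log2FC 3.55, SE 0.364, edgeR FDR 5.97e-06). Some members did not pass the test. MYOCD, the master coactivator of smooth muscle genes, had a log2FC of -0.39 (edgeR FDR 0.0603), and SMTN, the smoothelin gene, had 0.08 (edgeR FDR 0.354). MYH11, the smooth muscle myosin, was a DEG at a low level, with 3.98, 6.61 and 4.35 CPM in E4.5-Ant and 2.29, 2.37 and 2.65 CPM in E4.5-Post (log2FC 0.74, edgeR FDR 0.00811). MYOCD, SMTN and MYH11 were named after their values were seen. The study itself had picked 5 members of the list from these libraries, and without them 8 of 16 were higher and 0 lower. The summed level of the list was 3285 to 3727 CPM in E4.5-Ant libraries 1 and 3 and 4354 CPM in library 2, against 1923 to 1948 CPM in E4.5-Post. In pools of whole tissue, more cells of a type and more RNA per cell cannot be told apart.

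FOXF1 and FOXF2, transcription factors of the mesenchyme around the gut, rose as well. FOXF1 was at 3.14, 3.62 and 4.76 CPM in E4.5-Ant, against 0.222, 0.850 and 0.314 CPM in E4.5-Post (log2FC 3.04, SE 0.491, edgeR FDR 0.00037, and 3.82 without E4.5-Post library 2). FOXF2 was at 1.08, 1.29 and 1.66 CPM in E4.5-Ant, against 0.148, 0.248 and 0.140 CPM in E4.5-Post (log2FC 2.86, edgeR FDR 0.000568). Both stand in the list of gut, lung and cloaca genes, of which 3 of 13 tested members were higher and 2 lower. The third rise was that of VIL1, a villin of epithelial brush borders, which was not a DEG with 12 libraries (log2FC 0.67 with 11 libraries, edgeR FDR 0.0389, and 0.49 with 12). Without E4.5-Ant library 1 its log2FC dropped to 0.28, and the call was also lost without E4.5-Post library 1 or 2. PDX1, a pancreatic and duodenal regulator, was among the falls (log2FC -1.25, edgeR FDR 0.00266). The defining intestinal and lung regulators CDX1, CDX2 and NKX2-1 were too low to be tested, and the summed level of this list was 42.5 to 48.7 CPM in E4.5-Ant libraries 1 and 3 and 40.7 CPM in library 2, against 44.3 to 46.5 CPM in E4.5-Post. The part of mesentery or gut tissue in these rises was not tested.

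Extracellular matrix genes rose in large number. Of 56 tested matricellular and matrix proteins 30 were higher and 0 lower (median log2FC 0.74), and of 38 collagen genes 16 were higher and 0 lower (median 0.55). With 12 libraries these counts were 31 higher and 1 lower, and 16 higher and 1 lower. The study had named members of both lists from these libraries, THBS2, HTRA3 and COL1A2 among them. Neither list was recounted without such members. THBS2, a thrombospondin that modulates cell adhesion to matrix (chromosome 3, 41432031 to 41466039), was at 276, 413 and 231 CPM in E4.5-Ant, against 18.4, 16.9 and 25.1 CPM in E4.5-Post (log2FC 3.63, SE 0.12, edgeR FDR 2.47e-10). FBLN5, a fibulin needed for elastic fibres, was at 107, 126 and 94.2 CPM in E4.5-Ant, against 10.7, 15.6 and 15.2 CPM in E4.5-Post (log2FC 2.83, edgeR FDR 6.42e-09). OGN, a small leucine-rich proteoglycan, was at 24.4, 39.8 and 28.8 CPM in E4.5-Ant, against 3.80, 3.44 and 8.51 CPM in E4.5-Post (log2FC 2.30, edgeR FDR 9.6e-06). ASPN, a related proteoglycan, had a log2FC of 2.21 (edgeR FDR 0.0131) on low counts, and E4.5-Post library 3 decided its size. The value was 4.85 without that library, and the call was lost without either fitted E4.5-Ant library. COL8A2 encodes a short-chain collagen, and its level in the 2 regions was tight, with 97.9, 98.0 and 88.4 CPM in E4.5-Ant and 24.4, 24.8 and 24.1 CPM in E4.5-Post (log2FC 1.90, SE 0.0642, edgeR FDR 2.47e-10). COL1A2, a chain of the main fibrillar collagen, was at 1145, 1386 and 1076 CPM in E4.5-Ant, against 374, 363 and 417 CPM in E4.5-Post (log2FC 1.5, edgeR FDR 1.59e-07). COL15A1, a collagen of basement membrane zones, changed most among the collagens (log2FC 2.50, SE 0.184, edgeR FDR 2.45e-07).

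Basement membrane genes did not share this pattern. Of 27 tested members 3 were higher (COL15A1, COL4A3 and LAMB4) and 1 was lower, with a median log2FC of -0.05. Their share of DEG was 14.8%, against 10.8% of all tested genes. The call of COL4A3 was lost with 12 libraries and that of LAMB4 without E4.5-Ant library 1. The fall was that of FRAS1, a basement membrane protein of epithelia, with 212, 215 and 247 CPM in E4.5-Ant and 352, 408 and 368 CPM in E4.5-Post (log2FC -0.74, edgeR FDR 0.000298). Among cadherins, integrins and related adhesion genes 13 of 47 were higher and 3 lower. The 4 largest rises were those of the cadherins CDH13, CDH9, CDH19 and CDH10, with log2FC between 1.47 and 1.64 (edgeR FDR between 3.01e-06 and 0.0222). CDH10 was at 16.7, 18 and 16.4 CPM in E4.5-Ant, against 5.50, 5.39 and 6.63 CPM in E4.5-Post. The 3 falls were of genes of epithelia, CDH3, CDH17 and ITGA6 (log2FC -0.71, -0.69 and -0.61, edgeR FDR of at most 4.7e-06). The calls of CDH9 (log2FC 1.05 without E4.5-Ant library 1) and ITGA6 (-0.57 without it) did not hold without that library, nor without E4.5-Post library 2. For CDH9 the call was lost in 3 or more of the 5 leave-one-out fits. Of 12 tested genes of epithelial-mesenchymal transition only TWIST2 (log2FC 1.24, edgeR FDR 0.00014) and TWIST1 (0.84, edgeR FDR 0.000144) were DEG, both higher. These were 16.7% DEG, against 10.8% of all tested genes.

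**Figure D3:**
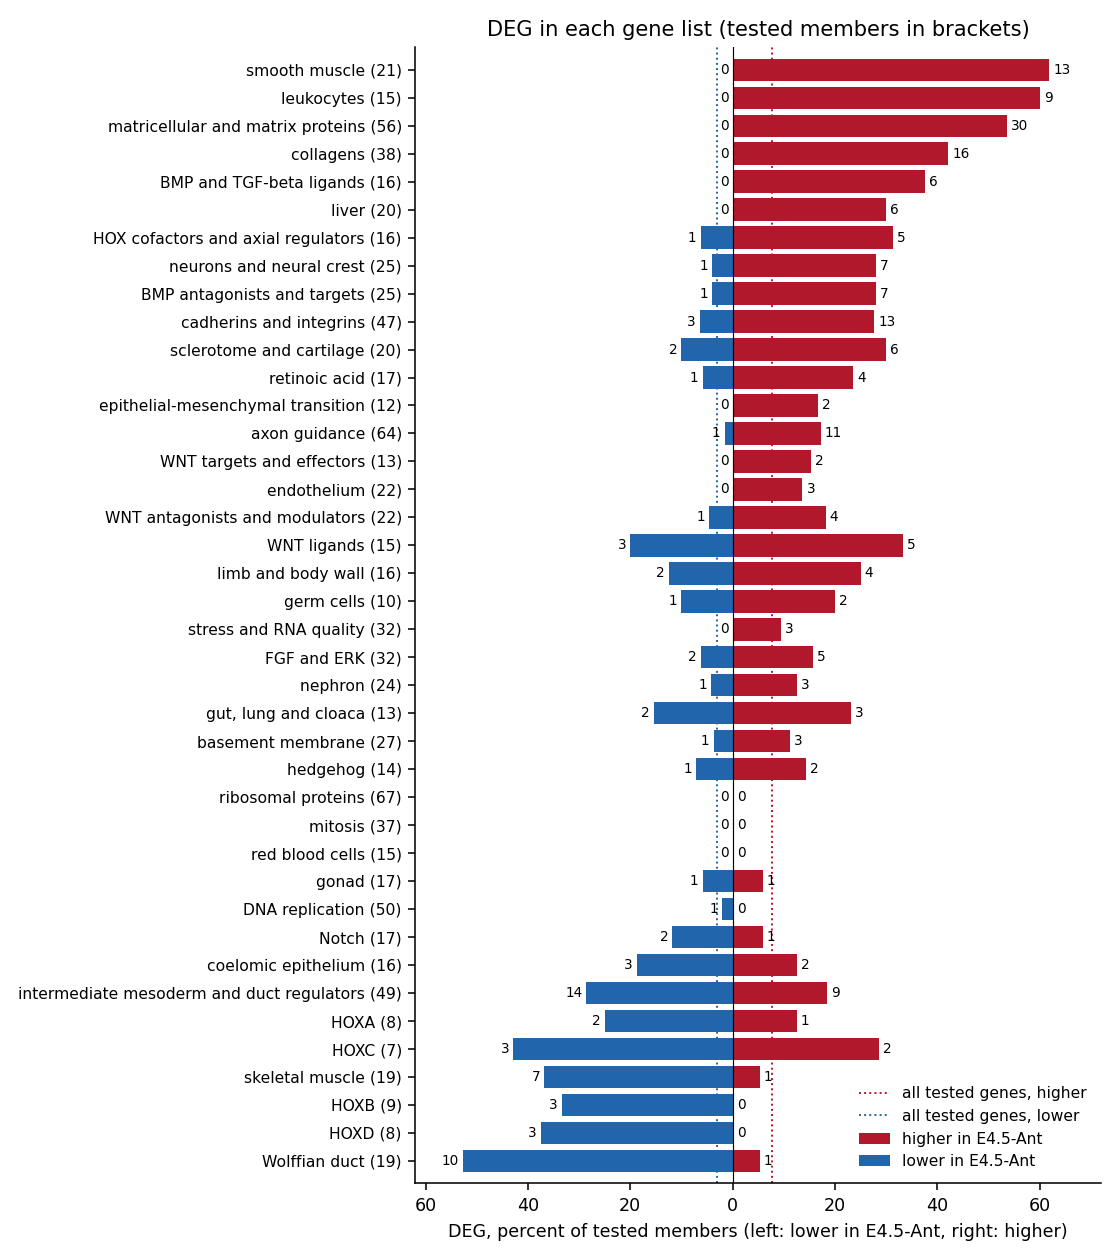
Share of the tested members of each gene list that were DEG in the 11-library fit, with those lower in E4.5-Ant to the left of 0 and those higher to the right. The number beside each bar counts the genes, the number in brackets the tested members, and dotted lines mark the shares over all tested genes (3.05% lower and 7.7% higher). Smooth muscle, leukocyte, matrix and collagen genes reach furthest to the right and Wolffian duct genes furthest to the left.

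HOX genes divided the 2 regions by paralog group. Of 12 tested genes of groups 1 to 5, 3 rose and 0 fell in E4.5-Ant. Of 7 genes of groups 6 to 8, 0 were higher and 6 lower, and all 4 genes of group 9 were lower. Of 9 genes of groups 10 to 13, 0 were higher and 1 was lower. With 12 libraries these counts were the same. HOXA4, HOXA5, HOXA6 and HOXD4 had 0 CPM in every library and were not tested, so the counts leave them out. HOXA4, HOXA5 and HOXA6 lie within the span counted for HOXA3, and HOXD4 lies within that of HOXD3. The part of the counting in these 0 values was not tested.

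The anterior rises were those of HOXC4, HOXC5 and HOXA2. HOXC4 was at 7.54, 6.67 and 7.0 CPM in E4.5-Ant, against 1.81, 1.24 and 1.33 CPM in E4.5-Post (log2FC 2.29, SE 0.195, edgeR FDR 9.88e-07). HOXC5 was at 19.2, 14.4 and 16 CPM in E4.5-Ant, against 4.47, 3.58 and 5.44 CPM in E4.5-Post (log2FC 1.94, SE 0.176, edgeR FDR 1.9e-06). HOXA2 was at 19.6, 19.9 and 20.5 CPM in E4.5-Ant, against 7.90, 8.36 and 9.87 CPM in E4.5-Post (log2FC 1.17, edgeR FDR 7.42e-06). Their 3 E4.5-Ant libraries were close to each other and above every E4.5-Post library. The other 9 tested genes of groups 1 to 5 had log2FC between -0.29 (HOXB5) and 0.35 (HOXD1) and were not DEG.

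The change of direction lay within the HOXC cluster between HOXC5 and HOXC6. HOXC6 was lower, with 8.38, 8.19 and 9.69 CPM in E4.5-Ant and 15.6, 13.1 and 16.9 CPM in E4.5-Post (log2FC -0.78, edgeR FDR 0.000414). HOXC8 was at 2.37, 5.20 and 4.76 CPM in E4.5-Ant, against 24, 23.9 and 23.0 CPM in E4.5-Post (log2FC -2.78, SE 0.212, edgeR FDR 3.49e-07). HOXA7, HOXB6, HOXB8 and HOXD8 fell less, with log2FC of -0.92, -0.66, -0.98 and -1.05 (edgeR FDR of at most 8.55e-05), and the call of HOXB6 was lost without E4.5-Ant library 1 (log2FC -0.56). HOXB7 alone of groups 6 to 8 was not a DEG, with 34.1, 30.3 and 32.9 CPM in E4.5-Ant and 37.1, 35.1 and 37.5 CPM in E4.5-Post (log2FC -0.16, edgeR FDR 0.137). These genes differed little between E4.5-Ant libraries, apart from HOXC8.

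The E4.5-Ant libraries separated at group 9. HOXB9 was at 7.43, 14.2 and 25.6 CPM in E4.5-Ant, against 66.4, 70.4 and 72.1 CPM in E4.5-Post (log2FC -2.13, SE 0.293, edgeR FDR 9.76e-05). HOXA9 was at 2.90, 5.91 and 13.7 CPM in E4.5-Ant, against 28.9, 30.7 and 32.1 CPM in E4.5-Post (log2FC -1.95, edgeR FDR 0.000732). HOXC9 was at 0.0349, 1.05 and 4.26 CPM in E4.5-Ant, against 12.2, 14.3 and 13.4 CPM in E4.5-Post (log2FC -2.74, SE 0.532, edgeR FDR 0.00151). In all 4 group 9 genes library 1 was lowest, library 2 intermediate and library 3 highest, with all of them below E4.5-Post. The size of the change therefore depended on the library, and the log2FC of HOXC9 was -8.42 without library 3 and -1.68 without library 1. For HOXB9 these values were -3.25 and -1.48, and for HOXA9 -3.42 and -1.20.

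From group 10 onwards E4.5-Ant library 3 exceeded every E4.5-Post library in 6 of 9 genes. HOXA10 was at 0.174, 1.17 and 12 CPM in E4.5-Ant, against 8.20, 8.36 and 11.5 CPM in E4.5-Post, and was not a DEG (log2FC -0.72, SE 0.619, edgeR FDR 0.415). With limma voom in place of edgeR the HOXA10 log2FC was -2.83 and the gene was a DEG. HOXC10 was at 0.105, 0.351 and 9.56 CPM in E4.5-Ant, against 2.95, 2.48 and 3.66 CPM in E4.5-Post (log2FC 0.58, edgeR FDR 0.569). Its direction depended on the library, with a log2FC of 1.61 without library 1 and -4.82 without library 3. HOXD10 was the group 10 gene that fell, with 0.454, 1.05 and 5.26 CPM in E4.5-Ant and 8.71, 7.83 and 8.83 CPM in E4.5-Post (log2FC -1.66, SE 0.468, edgeR FDR 0.0158), and its log2FC was -4.23 without library 3 and -0.73 without library 1. HOXA11 and HOXD11 had 0 and 0.0698 CPM in library 1, 0.0585 CPM each in library 2 and 2.61 and 1.99 CPM in library 3, while E4.5-Post lay between 0.567 and 1.18 CPM. HOXA13, HOXC11 and HOXD13 stayed at or below 0.248 CPM in every E4.5 library. Of the 13 tested genes of groups 9 to 13, library 3 was above library 1 in 13 and above every E4.5-Post library in 6, while library 1 was below every E4.5-Post library in 12. The 2 fitted E4.5-Ant libraries were thus often on opposite sides of E4.5-Post in groups 10 to 13. The antisense RNA HOXA10-AS, counted on its own strand, followed the same order, with 0.140, 0.526 and 1.90 CPM in E4.5-Ant and 4.99, 4.68 and 6.35 CPM in E4.5-Post (log2FC -2.49, edgeR FDR 0.000898, with -5.23 without library 3 and -1.53 without library 1).

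**Figure D4:**
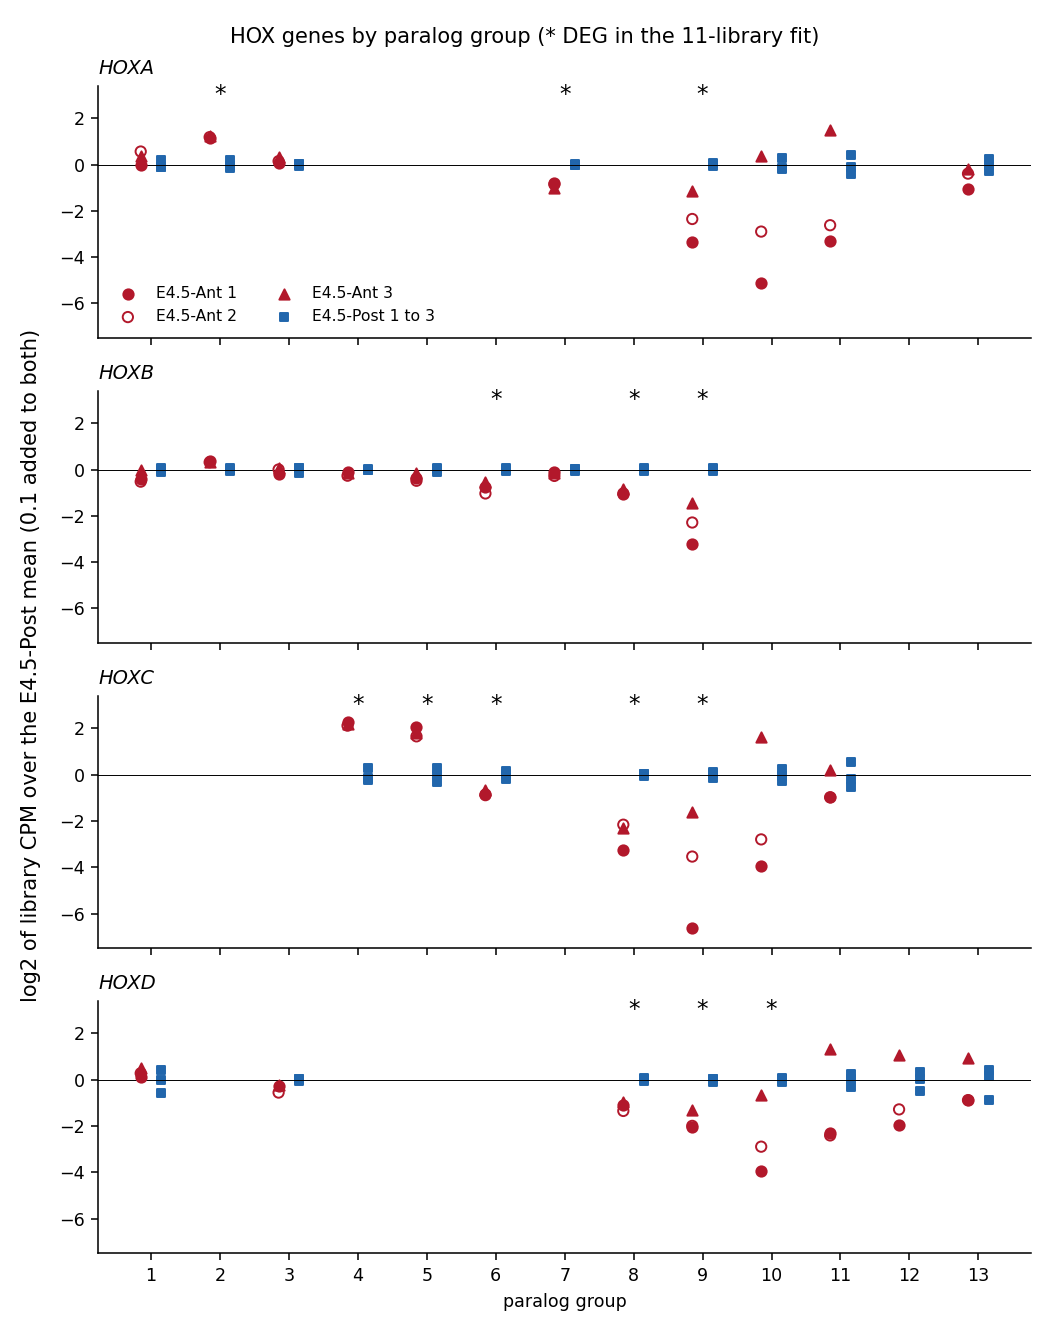
Log2 ratio of the CPM of each E4.5 library to the E4.5-Post mean, with 0.1 added to both, for the 32 tested HOX genes by cluster and paralog group. E4.5-Ant libraries are drawn left of E4.5-Post libraries, and asterisks mark DEG of the 11-library fit. HOXC4, HOXC5 and HOXA2 lie above 0, groups 6 to 9 lie mostly below it, and from group 9 onwards E4.5-Ant library 3 lies above library 1 in all 13 genes.

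Other genes of axial position were also among the DEG. Of 16 tested HOX cofactors and axial regulators 5 were higher and 1 lower (37.5% DEG, against 10.8% of all tested genes). Some of the rises were not stable. The call of GBX2 (log2FC 1.03, edgeR FDR 0.0468) was kept in 0 of the 5 leave-one-out fits and was lost with 12 libraries. The log2FC of T was 0.99 (edgeR FDR 0.0107), and 0.31 without E4.5-Ant library 3. MEIS1, a cofactor of HOX proteins, was at 446, 1161 and 473 CPM in E4.5-Ant, against 216, 199 and 246 CPM in E4.5-Post (log2FC 1.03, SE 0.112, edgeR FDR 1.09e-05, and 1.66 with 12 libraries). GDF11, a ligand of trunk-to-tail identity in mice, had a log2FC of 0.80 (edgeR FDR 0.00404) and lost its call without E4.5-Ant library 3. CDX4, a caudal homeobox gene that acts upstream of HOX genes, was the fall, at no more than 0.425 CPM in any E4.5 library, and its call was kept in 1 of the 5 leave-one-out fits. FGF8, a growth factor of caudal and limb signalling centres, was at 0.872, 0.819 and 2.73 CPM in E4.5-Ant, against 5.54, 6.66 and 6.32 CPM in E4.5-Post (log2FC -1.84, SE 0.35, edgeR FDR 0.00129). As in the posterior HOX genes, E4.5-Ant library 3 was nearest to E4.5-Post, and the log2FC was -2.84 without it and -1.22 without library 1. Limb and body wall genes pointed both ways, with 4 of 16 higher and 2 lower. TBX5, the forelimb T-box gene, was at 2.44, 2.46 and 3.23 CPM in E4.5-Ant, against 0.997, 0.638 and 1.33 CPM in E4.5-Post (log2FC 1.48, edgeR FDR 0.0015). PRRX2, a homeobox gene of mesenchyme, was at 22.1, 17.8 and 23.0 CPM in E4.5-Ant, against 6.94, 6.27 and 8.37 CPM in E4.5-Post (log2FC 1.62, edgeR FDR 6.45e-07).

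Transcription factors of the intermediate mesoderm and the ducts divided into rises and falls. Of 49 tested genes 9 were higher and 14 lower, with a median log2FC of -0.04. The study had named PRDM6, RUNX1, FOXE1, SMARCA2, OSR1 and TSHZ3 of this list from these libraries. The list was not recounted without them. The largest rise was that of PRDM6, a repressor of smooth muscle precursors (chromosome Z, 81604302 to 81675315). It was at 33.9, 90.6 and 35.2 CPM in E4.5-Ant, against 2.66, 2.83 and 3.04 CPM in E4.5-Post (log2FC 3.57, SE 0.192, edgeR FDR 1.19e-08). FOXD1, a regulator of kidney stroma, was at 39.5, 47.9 and 38.1 CPM in E4.5-Ant, against 6.06, 5.35 and 5.37 CPM in E4.5-Post (log2FC 2.76, SE 0.207, edgeR FDR 2.91e-07). RUNX1, known mainly from blood formation, was at 26.3, 42.3 and 21.8 CPM in E4.5-Ant, against 4.06, 3.76 and 4.12 CPM in E4.5-Post (log2FC 2.57, edgeR FDR 8.62e-09). In E6.5 duct PRDM6 averaged 2.60 CPM, FOXD1 2.67 CPM and RUNX1 109 CPM. RUNX2, the bone regulator of the same family, was at 23.7, 273 and 22.6 CPM in E4.5-Ant, against 3.18, 2.16 and 3.11 CPM in E4.5-Post. Its log2FC was 3.01 (SE 0.148, edgeR FDR 6.18e-09) with 11 libraries and 5.26 with 12, so its size depended on library 2 while its call did not. EYA4 (log2FC 1.54, edgeR FDR 4.54e-06), TWIST2, TWIST1 and GATA6 (0.70, edgeR FDR 0.00588) were among the further rises. The call of GATA6 was lost without E4.5-Ant library 3 (log2FC 0.56) and without E4.5-Post library 3 (0.57).

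The falls included several regulators of the early duct and nephron. LHX1 (log2FC -1.08, edgeR FDR 6.45e-07), PAX2 (-0.77, edgeR FDR 1.66e-05), EMX2 (-0.68, edgeR FDR 3.7e-06), SALL1 (-0.86, edgeR FDR 6.44e-07), GATA2 (-0.95, edgeR FDR 3.3e-06) and GATA3 (-0.59, edgeR FDR 7.43e-05) fell, the last close to the fold limit, with its call lost without E4.5-Ant library 1 or E4.5-Post library 2. SALL3, a spalt zinc finger gene, was at 30.2, 37.8 and 37.3 CPM in E4.5-Ant, against 70.4, 92.5 and 74.5 CPM in E4.5-Post (log2FC -1.26, edgeR FDR 1.18e-05). OSR2 (log2FC -0.96, edgeR FDR 0.000146) fell, whereas its paralog OSR1 was at 23.9, 28.6 and 26.6 CPM in E4.5-Ant and 21.4, 19.3 and 25 CPM in E4.5-Post (log2FC 0.17, edgeR FDR 0.278). IRX1 and IRX2, homeobox genes of the nephron in vertebrates, fell (log2FC -1.21 and -0.82, edgeR FDR 0.0021 and 0.0214), and IRX3 was not a DEG (0.30, edgeR FDR 0.363). IRX2 was called in 2 of the 5 leave-one-out fits. DMRT1, a gene of the sexual development of the gonad on chromosome Z, was at 1.08, 1.05 and 1.53 CPM in E4.5-Ant, against 3.73, 3.61 and 3.70 CPM in E4.5-Post (log2FC -1.54, edgeR FDR 0.000407). The study also counts DMRT1 among genes of duct elongation or differentiation, and it averaged 10.3 CPM in E5.5 duct and 18.1 CPM in E6.5 duct. FOXE1, SMARCA2 and DMRT3, each at a higher mean level in both ducts than in either E4.5 tissue, were not DEG between the regions, with log2FC of -0.38, -0.05 and -0.83 (edgeR FDR 0.0498, 0.813 and 0.182). FOXE1 stood at 7.99, 4.68 and 8.86 CPM in E4.5-Ant and 10.7, 10.3 and 11.2 CPM in E4.5-Post.

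Epithelial genes of the Wolffian duct were lower as a group. Of 19 tested members 10 fell and 1 rose in E4.5-Ant, at a median log2FC of -0.79, and with 12 libraries 11 were lower and 1 higher. SIM1, a transcription factor of this duct in the chicken, was at 83.5, 74.5 and 96.5 CPM in E4.5-Ant, against 182, 209 and 184 CPM in E4.5-Post (log2FC -1.12, SE 0.104, edgeR FDR 2.26e-06). WNT9B, the signal of the Wolffian duct on which mouse Müllerian duct elongation depends, was at 45.5, 36.1 and 48.8 CPM in E4.5-Ant, against 86.7, 92.2 and 98.2 CPM in E4.5-Post (log2FC -1.0, SE 0.0907, edgeR FDR 1.88e-06). EPCAM, an adhesion molecule of epithelia, was at 112, 86.8 and 108 CPM in E4.5-Ant, against 200, 201 and 200 CPM in E4.5-Post (log2FC -0.89, SE 0.057, edgeR FDR 6.23e-08). CALB1, a calcium-binding protein, was among the 8 members that were not DEG (log2FC 0.16, edgeR FDR 0.392, named after its value was seen). The summed level of the list was 1097 to 1174 CPM in E4.5-Ant libraries 1 and 3 and 929 CPM in library 2, against 1540 to 1615 CPM in E4.5-Post.

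RET was the only DEG of this list that rose. It encodes the receptor of the growth factor GDNF and is used by the Wolffian duct and by enteric neural crest. RET was at 49.9, 72.9 and 50.7 CPM in E4.5-Ant, against 11.6, 14.3 and 12.3 CPM in E4.5-Post (log2FC 1.95, SE 0.133, edgeR FDR 1.18e-07). GDNF, its ligand, was lower, with 41.2, 37.4 and 40.8 CPM in E4.5-Ant and 105, 104 and 111 CPM in E4.5-Post (log2FC -1.41, SE 0.0891, edgeR FDR 5.69e-08). Ligand and receptor were thus opposed. Both were named because they were DEG, so the separation of the regions in them was set by that choice. Neuronal and neural crest genes, which include RET, had 7 of 25 members higher and 1 lower. TUBB3, a neuronal tubulin, was at 66.1, 51.6 and 64.5 CPM in E4.5-Ant, against 22.3, 21.6 and 24.5 CPM in E4.5-Post (log2FC 1.49, SE 0.0784, edgeR FDR 1.03e-08), and STMN4, a stathmin of neurons, was at 9.07, 7.13 and 6.83 CPM in E4.5-Ant, against 1.81, 1.70 and 1.92 CPM in E4.5-Post (log2FC 2.11, edgeR FDR 9.22e-07). GAP43, a growth cone protein, was the fall (log2FC -0.85, edgeR FDR 0.000903). The summed level of this list was 695 to 738 CPM in E4.5-Ant libraries 1 and 3 and 673 CPM in library 2, against 489 to 515 CPM in E4.5-Post.

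Of 24 tested genes of the differentiated nephron 3 were higher and 1 lower, with a median log2FC of -0.13. These were 16.7% DEG, against 10.8% of all tested genes. LRP2, the endocytic receptor megalin of the proximal tubule, was at 796, 474 and 690 CPM in E4.5-Ant and 927, 899 and 739 CPM in E4.5-Post (log2FC -0.23, edgeR FDR 0.291, named after its value was seen). The rises were those of TINAG, an antigen of tubular basement membrane, SYNPO, an actin-associated protein of podocytes, and GLIS1, a zinc finger gene whose call (log2FC 0.60) was lost in 3 of the 5 leave-one-out fits. TINAG was at 5.03, 2.16 and 4.43 CPM in E4.5-Ant, against 0.739, 0.709 and 0.454 CPM in E4.5-Post (log2FC 2.87, SE 0.371, edgeR FDR 5.73e-05), and SYNPO was at 24.5, 24.2 and 26.3 CPM in E4.5-Ant, against 10.2, 11.7 and 11.1 CPM in E4.5-Post (log2FC 1.18, edgeR FDR 8.58e-08). Coelomic epithelium genes had 2 of 16 members higher and 3 lower. The rises were those of GATA6 (log2FC 0.70, edgeR FDR 0.00588) and BNC2 (0.65, edgeR FDR 0.0314). BNC2 was at 56.6, 252 and 65.7 CPM in E4.5-Ant, against 32.4, 28.9 and 52.9 CPM in E4.5-Post. In the leave-one-out fits its log2FC lay between 0.49 and 0.96, on both sides of the fold limit. The falls were those of BNC1, KRT8 and ALDH1A2. BNC1, a zinc finger gene of mesothelium, and KRT8, a keratin of simple epithelia, both had a log2FC of -0.74 (edgeR FDR 0.000156 and 3.95e-07), and BNC1 lost its call without E4.5-Ant library 1.

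Among WNT ligands 5 of 15 tested genes were higher and 3 lower, in both fits. WNT2B was at 7.15, 6.84 and 7.12 CPM in E4.5-Ant, against 1.11, 0.815 and 1.08 CPM in E4.5-Post (log2FC 2.80, SE 0.208, edgeR FDR 2.63e-07). WNT2 was at 4.50, 3.98 and 4.76 CPM in E4.5-Ant, against 0.849, 0.992 and 0.768 CPM in E4.5-Post (log2FC 2.38, edgeR FDR 6.21e-07). Both are ligands of gut and lung mesenchyme in mice. WNT6 was at 11.4, 9.71 and 12.3 CPM in E4.5-Ant, against 3.99, 2.91 and 4.47 CPM in E4.5-Post (log2FC 1.61, edgeR FDR 4.03e-06), and WNT7A, the ligand of Müllerian duct epithelium in mice, was at 1.57, 1.11 and 1.49 CPM in E4.5-Ant, against 0.443, 0.354 and 0.523 CPM in E4.5-Post (log2FC 1.76, edgeR FDR 0.000194). WNT10A was the other rise, at no more than 0.662 CPM in any E4.5 library, and its call was lost without E4.5-Ant library 3. The falls were those of WNT9B, WNT9A and WNT4, the ligand needed for Müllerian duct invagination in mice. WNT4 was at 7.05, 5.55 and 11.9 CPM in E4.5-Ant, against 19.3, 18.8 and 22 CPM in E4.5-Post (log2FC -1.12, SE 0.162, edgeR FDR 0.000145). WNT5A, WNT5B, WNT11 and WNT16 were not DEG, with log2FC of 0.16, -0.11, 0.30 and 0.60 (edgeR FDR between 0.0166 and 0.356).

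Antagonists and modulators of WNT had 4 of 22 members higher and 1 lower, or 22.7% DEG, against 10.8% of all tested genes. RSPO1, a secreted enhancer of WNT signalling, was at 9.88, 7.95 and 9.94 CPM in E4.5-Ant, against 5.28, 4.78 and 4.71 CPM in E4.5-Post (log2FC 0.98, edgeR FDR 0.000146). RSPO2, of the same family, was at 3.77, 29.5 and 5.59 CPM in E4.5-Ant, against 2.07, 1.67 and 1.92 CPM in E4.5-Post, and library 2 raised its log2FC to 2.76, against 1.27 in the 11-library fit (edgeR FDR 0.00312). DKK2, an antagonist, rose (log2FC 1.09, edgeR FDR 0.00144), and the WNT-inactivating NOTUM fell by 0.59 on the log2 scale (edgeR FDR 0.00128), at the fold limit. WIF1, another antagonist, was not a DEG with 12 libraries. The call of NOTUM was lost without E4.5-Ant library 1 or E4.5-Post library 3, and that of RSPO2 without E4.5-Ant library 3. Of 13 genes that respond to or carry the signal, WISP1 and WISP2 were DEG, and WISP2 (log2FC 1.51, edgeR FDR 0.0108) lost its call without E4.5-Ant library 3. The median log2FC of these 13 was -0.10, and 15.4% of them were DEG, against 10.8% of all tested genes.

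All called BMP and TGF-beta ligands were higher, 6 of 16 tested (8 of 16 with 12 libraries). INHBA, the activin A subunit, was at 5.06, 8.36 and 5.42 CPM in E4.5-Ant, against 0.480, 0.709 and 0.872 CPM in E4.5-Post (log2FC 2.89, SE 0.248, edgeR FDR 1.1e-06). BMP4 was at 54.3, 39.1 and 45 CPM in E4.5-Ant, against 18.1, 20.4 and 18.5 CPM in E4.5-Post (log2FC 1.36, SE 0.103, edgeR FDR 3.26e-07). TGFB3 was at 210, 200 and 177 CPM in E4.5-Ant, against 83.5, 83.5 and 85.1 CPM in E4.5-Post (log2FC 1.17, SE 0.0732, edgeR FDR 4.83e-08). GDF7 rose to 11.8, 11.7 and 12 CPM in E4.5-Ant, against 4.14, 5.60 and 5.65 CPM in E4.5-Post (log2FC 1.18, edgeR FDR 0.000166), and TGFB2 rose by 0.90 on the log2 scale (edgeR FDR 1.31e-05). BMP2, BMP3, BMP6 and BMP7 were not DEG, with log2FC between -0.36 and 0.16 (edgeR FDR between 0.00505 and 0.964). On the receiving side 7 of 25 antagonists and targets were higher and 1 lower. SMAD9, an effector of BMP receptors, was at 42.6, 51.6 and 37.6 CPM in E4.5-Ant, against 14.7, 12.9 and 13.4 CPM in E4.5-Post (log2FC 1.53, edgeR FDR 1.5e-08). The BMP target MSX2 was the fall (log2FC -1.19, edgeR FDR 0.00188), with 1.95, 1.81 and 4.02 CPM in E4.5-Ant and 6.31, 6.48 and 6.87 CPM in E4.5-Post. MSX1 had a log2FC of 1.56 (edgeR FDR 0.0204) and was not a DEG with 12 libraries, without E4.5-Ant library 3 or without E4.5-Post library 1.

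Of 32 tested genes of FGF and ERK signalling 5 were higher and 2 lower, with a median log2FC of -0.09. These were 21.9% DEG, against 10.8% of all tested genes. Among the rises, the calls of FGF7 and FGF14 were lost in 3 or more of the 5 leave-one-out fits. FGF16 was at 3.52, 4.44 and 4.06 CPM in E4.5-Ant, against 1.40, 0.744 and 1.19 CPM in E4.5-Post (log2FC 1.74, edgeR FDR 3.89e-05). The receptor FGFR3 was at 95, 147 and 101 CPM in E4.5-Ant, against 49.9, 49.99 and 46.9 CPM in E4.5-Post (log2FC 0.97, edgeR FDR 3.38e-06). FGFR1, FGFR2 and FGFR4 were not DEG, with log2FC of 0.38, -0.25 and -0.19 (edgeR FDR 0.000237, 0.00645 and 0.0593). FGF8 and FGF9 (log2FC -0.63, edgeR FDR 0.00219) fell, FGF9 in 3 of the 5 leave-one-out fits. Of the genes that respond to FGF signalling through ERK, DUSP6, SPRY1 and ETV4 had log2FC of -0.09, -0.08 and -0.02 (edgeR FDR 0.494, 0.306 and 0.894).

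Retinoic acid genes showed 4 rises and 1 fall among 17 tested. The fall was that of ALDH1A2, the synthesising enzyme of the early mesoderm, with 676, 599 and 723 CPM in E4.5-Ant and 1073, 1105 and 1075 CPM in E4.5-Post (log2FC -0.66, SE 0.0642, edgeR FDR 3.61e-06). A second synthesising enzyme, ALDH1A3, was higher, with 91.1, 85.7 and 82.3 CPM in E4.5-Ant and 38.3, 47.0 and 42.1 CPM in E4.5-Post (log2FC 1.0, edgeR FDR 6.7e-07). The binding proteins CRABP1 (log2FC 1.54, edgeR FDR 3.43e-05) and CRABP2 (1.02, edgeR FDR 5.12e-05) and the retinol transporter STRA6 (0.76, edgeR FDR 7.78e-07) were also higher. The degrading enzyme CYP26A1 was at 3.32, 3.57 and 3.60 CPM in E4.5-Ant and 2.55, 3.08 and 3.59 CPM in E4.5-Post (log2FC 0.14, edgeR FDR 0.671). All 5 calls of this group held in each of the 5 leave-one-out fits. In the hedgehog pathway the coreceptor BOC was at 175, 230 and 170 CPM in E4.5-Ant, against 92.3, 78.3 and 90.4 CPM in E4.5-Post (log2FC 0.96, edgeR FDR 7.34e-07). The effector GLI2 was higher as well (1.01, edgeR FDR 2.75e-05), and the ligand DHH was lower (-0.64, edgeR FDR 0.00149). Of 17 Notch genes, the target HEY2 was higher (0.98, edgeR FDR 0.00375), and the ligand JAG2 (-0.83, edgeR FDR 8.48e-05) and the target HES5 (-0.74, edgeR FDR 0.0115) were lower. The Notch genes were 17.6% DEG, against 10.8% of all tested genes. The call of HEY2 was lost without E4.5-Ant library 1, that of DHH without E4.5-Post library 1 or 2, and that of HES5 in 3 of the 5 leave-one-out fits.

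Of 64 tested axon guidance genes 11 were higher and 1 (GDNF) lower. These were 18.8% DEG, against 10.8% of all tested genes. The study had named EFNB2 and other members from these libraries, and the list was not recounted without them. EFNB2, the membrane-bound ligand ephrin B2, was at 34.1, 92.4 and 35.5 CPM in E4.5-Ant, against 9.42, 10.8 and 10.2 CPM in E4.5-Post (log2FC 1.75, SE 0.0898, edgeR FDR 8.22e-09). NTN1, the secreted guidance cue netrin, was at 16.5, 26.5 and 16 CPM in E4.5-Ant, against 4.69, 4.46 and 6.80 CPM in E4.5-Post (log2FC 1.58, edgeR FDR 9.84e-07). SLIT3, a ligand of ROBO receptors, was at 377, 1481 and 355 CPM in E4.5-Ant, against 124, 128 and 140 CPM in E4.5-Post (log2FC 1.46, edgeR FDR 5.8e-09, and 2.51 with 12 libraries). E4.5-Ant libraries 1 and 3 were close for all of these, and library 2 was far above them for EFNB2 and SLIT3.

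Genes of other cell types were counted as well. Leukocyte genes had 9 of 15 members higher and 0 lower, with a median log2FC of 0.83. SPI1, a transcription factor of macrophages, was at 10.3, 11.9 and 9.69 CPM in E4.5-Ant, against 4.76, 3.58 and 4.50 CPM in E4.5-Post (log2FC 1.19, edgeR FDR 1.7e-05), and LY86, a partner of a lymphocyte surface receptor, was at 8.90, 8.83 and 8.45 CPM in E4.5-Ant, against 3.51, 2.76 and 3.70 CPM in E4.5-Post (log2FC 1.35, edgeR FDR 8.01e-05). HAVCR1, which is also known from injured kidney tubules, was in this list and rose by 1.08 on the log2 scale (edgeR FDR 0.000354). The summed level was 237 to 268 CPM in E4.5-Ant libraries 1 and 3 and 223 CPM in library 2, against 176 to 194 CPM in E4.5-Post. Endothelial genes had 3 of 22 members higher (LYVE1, ERG and SOX7) and 0 lower. Their share of DEG was 13.6%, near the 10.8% of all tested genes. Hemoglobin and other genes of red blood cells had 0 DEG of 15 under edgeR. Liver genes had 6 of 20 members higher and 0 lower (4 and 1 with 12 libraries). Among them APOB, the main apolipoprotein, was at 268, 158 and 246 CPM in E4.5-Ant, against 131, 104 and 87.8 CPM in E4.5-Post (log2FC 1.23, edgeR FDR 8.11e-05), and TTR, a carrier of thyroid hormone, was at 6.56, 3.51 and 7.33 CPM in E4.5-Ant, against 1.85, 1.13 and 1.29 CPM in E4.5-Post (log2FC 2.26, edgeR FDR 6.3e-05). The list summed to 878 to 915 CPM in E4.5-Ant libraries 1 and 3 and 564 CPM in library 2, against 620 to 797 CPM in E4.5-Post. The part of blood, liver or nerve tissue in these values was not tested.

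The calls of many genes of somite derivatives depended on single libraries, but that of PAX1 did not. Of 19 skeletal muscle genes 7 were lower and 1 higher (median log2FC -1.05), and over the 5 fits that left out 1 library the lower ones numbered between 2 and 10. There were 2 without E4.5-Ant library 1, 3 without E4.5-Ant library 3 and 3 without E4.5-Post library 3. MYOD1, a master regulator of skeletal muscle, was at 0.489, 0.935 and 0.538 CPM in E4.5-Ant, against 1.37, 2.09 and 1.71 CPM in E4.5-Post (log2FC -1.77, edgeR FDR 0.00547, with its call lost without E4.5-Ant library 1). TNNC2, a fast muscle troponin, was at 2.27, 2.40 and 1.95 CPM in E4.5-Ant, against 3.62, 4.32 and 8.27 CPM in E4.5-Post (log2FC -1.38, edgeR FDR 0.0172). Its log2FC was -0.94 without E4.5-Post library 3, and its call was kept in 2 of the 5 leave-one-out fits. The list summed to 125 to 137 CPM in E4.5-Ant libraries 1 and 3 and 143 CPM in library 2, against 129 to 226 CPM in E4.5-Post, so the regions overlapped. Among 20 sclerotome and cartilage genes 6 were higher and 2 lower. PAX1, the regulator of sclerotome, was at 18.6, 20.3 and 20.7 CPM in E4.5-Ant, against 2.81, 6.20 and 3.42 CPM in E4.5-Post (log2FC 2.21, SE 0.416, edgeR FDR 0.00121). The cartilage genes MATN4 and ACAN, named after their values were seen, split both regions. MATN4 was at 0.698, 5.26 and 12.9 CPM in E4.5-Ant and 1.26, 8.11 and 1.08 CPM in E4.5-Post, and ACAN at 1.15, 4.21 and 13 CPM in E4.5-Ant and 0.960, 5.07 and 0.733 CPM in E4.5-Post. The libraries with more of these transcripts, E4.5-Ant library 3 and E4.5-Post library 2, thus did not carry the same number. E4.5-Ant library 3 was also the highest E4.5-Ant library in the posterior HOX genes.

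DEG were 2 of 17 tested gonad genes (11.8%) and 3 of 10 tested germ cell genes, against 10.8% of all tested genes. Of the gonad genes DMRT1 was lower and LHX9, a homeobox gene of the early gonad, was higher (log2FC 1.46, edgeR FDR 0.0304), the last in only 2 of the 5 leave-one-out fits. Of 10 tested germ cell genes 2 were higher and 1 lower. DAZL, an RNA-binding protein of germ cells, was at 0.803, 0.643 and 1.45 CPM in E4.5-Ant, against 0.332, 0.496 and 0.558 CPM in E4.5-Post (log2FC 1.22, edgeR FDR 0.0163), and its call held in 3 of the 5 leave-one-out fits. KIT, a receptor that is also used outside the germ line, was at 17, 16.5 and 13.9 CPM in E4.5-Ant, against 4.06, 4.43 and 4.40 CPM in E4.5-Post (log2FC 1.82, edgeR FDR 6.86e-07). CLDN1, a tight junction protein of many epithelia, fell to 276, 193 and 261 CPM in E4.5-Ant, against 527, 570 and 515 CPM in E4.5-Post (log2FC -1.03, edgeR FDR 4.73e-08). The germ cell gene DDX4 was too low to be tested.

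Genes of growth had small changes, mostly of 1 sign. All 67 tested ribosomal protein genes had a log2FC below 0, with a median of -0.13, and 0 were DEG. For comparison, the median log2FC was -0.09 for protein coding genes under 10 kb with at least 1 CPM and -0.02 for all tested genes. The part of gene span in the changes of growth genes was not tested. Of 37 mitosis genes 36 were below 0 (median -0.26) and 0 were DEG, and of 50 DNA replication genes 48 were below 0 (median -0.24). With library size as the only normalization the medians of the ribosomal, mitosis and replication genes were -0.10, -0.23 and -0.21. The single DEG was RRM2, which supplies deoxyribonucleotides for replication, with 238, 196 and 241 CPM in E4.5-Ant and 407, 414 and 413 CPM in E4.5-Post (log2FC -0.81, edgeR FDR 4.36e-07). Stress genes had 3 of 32 members higher (EGR1, EGLN3 and HSPB1, the last not without E4.5-Ant library 1) and 0 lower, with a median of 0.01. Their share of DEG was 9.4%, against 10.8% of all tested genes.

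Long non-coding RNAs (lncRNAs) made up 268 of the DEG, 12.5% of the 2151 tested, with 203 higher and 65 lower in E4.5-Ant. Protein coding genes had 1512 DEG, 10.5% of 14362. LOC107051956 changed most, with 7.92, 21.5 and 9.07 CPM in E4.5-Ant, against 0.148, 0.213 and 0.244 CPM in E4.5-Post (log2FC 5.33, SE 0.251, edgeR FDR 4.41e-09). LOC107053753 (log2FC 3.69, edgeR FDR 2.99e-05, and 4.30 without E4.5-Post library 2) and LOC107053043 (3.15, edgeR FDR 7.19e-07) followed. LOC101748601 was the most abundant of the lncRNAs with the largest falls, with 2.72, 2.16 and 3.35 CPM in E4.5-Ant and 10.2, 14.7 and 12.5 CPM in E4.5-Post (log2FC -2.07, edgeR FDR 2.07e-06).

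The DEG that library 2 added or removed differed in gene span. With 12 libraries 639 genes became DEG, 430 higher and 209 lower, and 162 ceased to be DEG. The median span was 80.9 kb for the 430 added rises and 8.38 kb for the 209 added falls, against 18.9 kb for the 1623 DEG of both fits and 15 kb for all tested genes. Among 13167 protein coding genes with at least 1 CPM, the median log2 ratio of library 2 to the mean of libraries 1 and 3 was -0.32 for genes under 10 kb and 1.14 for genes over 200 kb. The same median for library 3 over library 1 was 0.00 and 0.04. IL1RAPL1, a neuronal receptor gene with a long span, was at 22.3, 373 and 25 CPM in E4.5-Ant and 16.1, 13.6 and 18.3 CPM in E4.5-Post, and its log2FC was 0.54 (edgeR FDR 0.0761) with 11 libraries and 3.15 with 12 (named after its values were seen). Of genes over 200 kb 18.9% were higher DEG in the 11-library fit and 41.0% with 12, and of genes under 10 kb 6.31% and 5.76%. The share of rises thus grew with span in both fits, more steeply with library 2. Since introns were counted, a rise of a long gene can hold unspliced RNA, and its part was not tested.

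**Figure D5:**
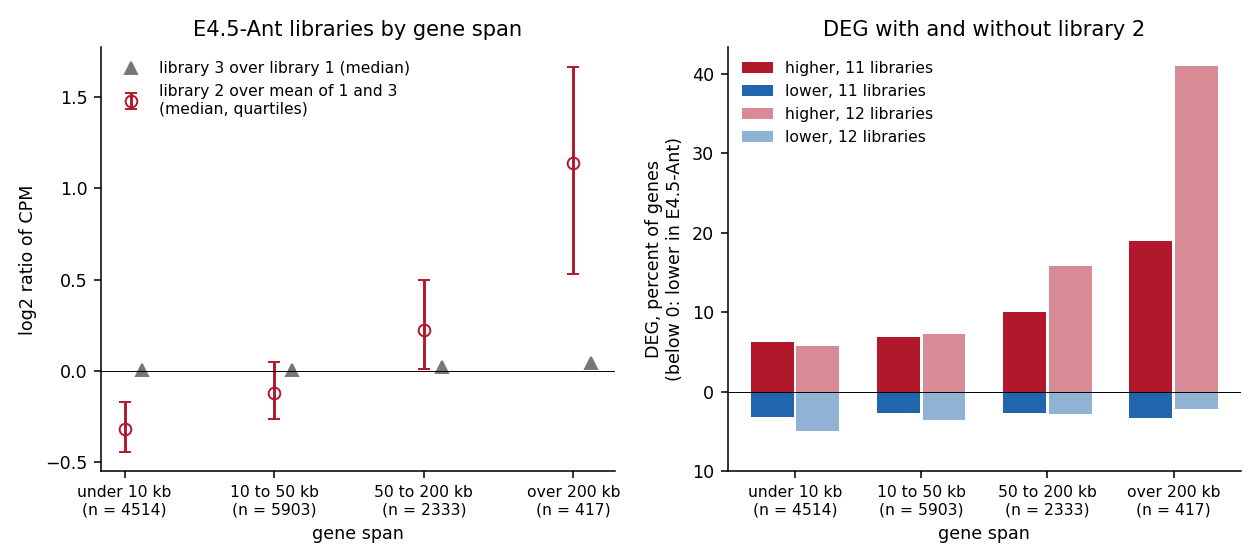
Gene span, 13167 protein coding genes in 4 classes, against the E4.5-Ant libraries and the DEG. Left, the median log2 ratio of CPM of library 2 over the mean of libraries 1 and 3 (circles, bars from the lower to the upper quartile) and of library 3 over library 1 (triangles). Right, the percentage of genes that were DEG, higher above 0 and lower below 0, with 11 libraries (dark) and 12 (light). Library 2 departs from the others in long genes, where the share of rises is 41.0% with it and 18.9% without it.

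The E4.5-Ant level was set beside that of the ducts for each DEG. Of the 1278 rises, 714 (55.9%) had a mean CPM in E4.5-Ant above that of both E5.5 and E6.5 duct, and of the 507 falls, 310 (61.1%) had one below both. These DEG were selected on the same E4.5-Ant libraries, a choice that favours such shares. The shares over all tested genes were not taken, so these percentages have no baseline. ACTG2 averaged 104 CPM in E4.5-Ant libraries 1 and 3, 10.5 CPM in E5.5 duct and 20.3 CPM in E6.5 duct. TAGLN averaged 10.7 and 8.97 CPM in E5.5 and E6.5 duct and FBLN5 21.3 and 16.7 CPM, below each of their E4.5-Ant libraries. Other rises were higher still in the ducts, as HTRA3, a secreted serine protease, was at 25.8, 25.4 and 26 CPM in E4.5-Ant and 10.4, 8.72 and 9.25 CPM in E4.5-Post and averaged 131 and 258 CPM in E5.5 and E6.5 duct. COL1A2 averaged 1346 and 2428 CPM there. Ducts and E4.5 tissues differ in age and in dissection, and these means were not tested against each other.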

How the data were processed

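RNA was sequenced with a stranded kit from pools of tissue. Per the labels and file headers, the authors aligned reads with STAR to GRCg6a and deposited raw counts per gene from featureCounts 1.6.2. In the deposited table the length of each of the 24121 genes equals its span, so introns were counted. Columns were matched to tissues by name, which gives the group but not the single sample, and 0 per-sample columns were unused. The members and gene lists were chosen with earlier results of these data known.

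The test was that of edgeR 4.0.16 under R 4.3.3 (TMM normalization, filterByExpr, quasi-likelihood F test, 4 tissues in 1 model of 11 libraries, Benjamini-Hochberg adjustment over all 16603 tested genes). The fit without E4.5-Ant library 2 was the main one. Alternatives used limma 3.58.1 (voom), DESeq2 1.42.0, other normalizations and filters, a test against the fold limit, a replicate block and leaving out each library. Genes named were the 12 largest rises and 12 largest falls among DEG with a symbol, at least 5 CPM in the higher region, no overlap of the fitted libraries and the same call with 12 libraries, up to 4 DEG per list and direction with further members of signalling and HOX lists, and the 3 lncRNAs of largest change in each direction with at least 1 CPM. Other genes are marked as named after their values were seen. Chromosomes were assigned by matching symbols to RefSeq (22662 of 24121 genes), and start and end are those of the deposited table. On simulated counts 189 of 200 changed genes were recovered, with 4 false calls. The changed genes had a mean above 1 CPM and were changed 2-fold or 4-fold. Of these, 89% of the 2-fold and 100% of the 4-fold changes were recovered. Smaller changes and changes in genes at lower levels were not simulated, so the recovery does not cover them. All other genes had the same mean in the 4 tissues, and rises and falls were equal in number. No library was made to depart from its group. The recovery and the 4 false calls therefore do not cover data with more changes, mostly rises, or with such a library. The counts give no molecular identifiers, so the counting interval covers counting error only. Some items are not reported here.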

Additional observations from a re-analysis of the deposited data

How the results depend on the processing

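Over 14 alternatives other than leaving out a library, between 615 and 2274 genes were DEG, against 1785 in the fit of 11 libraries. The lowest count came from the test against the fold limit, which called 615 genes, 500 higher and 115 lower in E4.5-Ant. Leaving out each E4.5 library in turn gave 1416 to 1728 DEG, 1025 to 1213 higher and 391 to 518 lower. The same with library 2 kept, chosen after seeing the data, gave 1770 to 2547 DEG, 1187 to 1804 higher and 583 to 777 lower. Where this left 1 E4.5-Ant library, it was assumed to vary like the other groups. The replicate block on the 6 E4.5 libraries gave 1311 DEG, against 1688 for these 6 libraries without the block, a fit added after seeing the data. Same-numbered libraries of the 2 regions had deviations correlated at 0.137, -0.144 and -0.179. With 3 libraries per region, library 2 among them, these values cannot decide whether the numbers pair the samples. The main fit did not pair them. The sources used here do not say whether same-numbered pools share embryos. The summed level of W genes had the same order by number in both regions, but the single W gene HINTW did not. HINTW was at 582, 394 and 424 CPM in E4.5-Ant, against 468, 556 and 378 CPM in E4.5-Post. Of 177 named DEG, 131 were called in all 5 fits that left out 1 of the 11 libraries and 172 with 12 libraries, and VIL1, MSX1, GBX2, WIF1 and COL4A3 were not called with 12. The replicate block kept 139 calls and lost 36, and the test against the fold limit kept 110 and lost 67. Of the named DEG, 0 reversed under these alternatives. Among named genes that were not DEG, 3 posterior HOX genes became DEG with the opposite sign, and others changed sign without becoming DEG. Without E4.5-Ant library 3 the log2FC was -7.63 for HOXA11 and -4.82 for HOXC10, and with library 2 kept the HOXA11 log2FC was -5.05, the HOXC10 log2FC was -3.91 and the HOXD11 log2FC was -3.41, while without E4.5-Ant library 1 it was 1.54 for HOXA11 and 1.61 for HOXC10. The 2 fitted E4.5-Ant libraries limit the precision of every change, and E4.5-Ant library 2 had 17103844 counts outside ribosomal RNA. The causes of these differences were not tested.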

Other observations

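Sexes were not separated in the pools, and the W chromosome is carried by females. The summed level of the 73 W genes in the table was 1941, 2216 and 1486 CPM in E4.5-Ant libraries 1, 2 and 3, against 1450, 1712 and 1187 CPM in E4.5-Post libraries 1, 2 and 3. Of the 40 W genes tested, 4 were DEG, a share close to the 10.8% of all tested genes.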
